A study of Mus musculus with 13 samples.

Results

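Ubd encodes FAT10, a ubiquitin-like protein that is joined to other proteins and takes them to the proteasome, the protease complex that degrades tagged proteins in the cell. Its level was followed in mouse sciatic nerve together with 8 genes of antigen processing that interferon-gamma is known to induce, namely Psmb8, Psmb9, Psmb10, Psme1, Psme2, Tap1, Tapbp and B2m. The 9 genes were selected on the measured db/db against db/+ log2 difference of these arrays, Ubd for its size there and the others as genes of a shared response. Of the 9, 8 were measured under their symbols among 15437 genes, as probe sets 24108_at (Ubd), 16913_at (Psmb8), 16912_at (Psmb9), 19171_at (Psmb10), 19186_at (Psme1), 21354_at (Tap1), 21356_at (Tapbp) and 12010_at (B2m). Psme2 was paired with no probe set and was not analysed here. All 8 passed a filter on dim genes, which asked for a mean log2 level of at least 6.29 over the 13 arrays.

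Whole sciatic nerves came from mice of the BKS strain, aged 24 weeks, with 7 samples of genotype db/+ (101, 103, 104, 105, 106, 404 and 407) and 6 of genotype db/db (110, 111, 112, 409, 410 and 411), each on 1 array. The db allele disrupts the long form of the leptin receptor, so that db/db mice become obese and diabetic, while db/+ mice carry 1 copy of the allele and are the control. The study asked which genes differ between the genotypes in nerve of a mouse used to model neuropathy in type 2 diabetes. The labels give no separate animal for each sample, so that the spread measured is that between samples and may be technical.

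In the immunoproteasome, the inducible catalytic subunits encoded by Psmb8, Psmb9 and Psmb10 take the place of those of the standard proteasome, encoded by Psmb5, Psmb6 and Psmb7. The PA28 activator made from Psme1 and Psme2 opens the end of the complex. The peptides it releases are carried into the endoplasmic reticulum by the transporter of which Tap1 encodes a subunit, are loaded with the help of tapasin (Tapbp), and are shown at the cell surface by MHC class I molecules, of which B2m encodes the light chain. Interferon-gamma acts through its receptor, the kinases Jak1 and Jak2 and the factor Irf1 to raise these genes. FAT10 is known to respond to interferon-gamma and to tumour necrosis factor, alone and together.

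Values were the RMA levels deposited by the authors, on a log2 scale, so a step of 1 is a doubling, and a level of 1 gene cannot be set against that of another. Array medians lay between 8.63 and 8.71, and 0 pairs of arrays held identical values. Lepr, the gene that carries the db allele, lay at 6.78 to 8.98 on db/+ arrays against 5.85 to 6.56 on db/db arrays. Markers of Schwann cells, the glia of nerve, were present in all groups, with Pmp22 at 13.84 ± 0.15 (SD, n = 7) in db/+ and 13.62 ± 0.12 (SD, n = 6) in db/db. The mean of 8 neuron markers was 11.88 to 12.60 on db/+ arrays 101, 103, 104 and 106, 7.86 to 9.48 on 105, 404 and 407, and 7.04 to 7.83 on the db/db arrays. Those 4 db/+ arrays are shown apart below.

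The starts of 5 of the 9 genes, Ubd, Psmb8, Psmb9, Tap1 and Tapbp, lie on chromosome 17, with Psme1 and Psme2 on 14, Psmb10 on 8 and B2m on 2, per RefSeq. The sequences before the starts are shown for Ubd, which stood apart from the other genes, for Psmb8, for Psmb9 with Tap1, whose levels went with that of Psmb8 from array to array, and for B2m. Psmb9 and Tap1 are read in opposite directions from a stretch of 225 bases between their starts. Each sequence is from RefSeq, build GRCm38.p6, plus strand, 5′ to 3′, and ends on its right at the base before a start, with the start of Psmb9 and that of Tap1 at either end of theirs (Ubd chr17:37193642-37193891, Psmb8 chr17:34197945-34198194, Psmb9 and Tap1 chr17:34187331-34187555, B2m chr2:122147437-122147686). Capitals mark matches, on either strand, to the interferon-gamma activated site TTCNNNGAA, to the core of the interferon-stimulated response element GAAANNGAAA, or to the kappa-B motif.
Ubd: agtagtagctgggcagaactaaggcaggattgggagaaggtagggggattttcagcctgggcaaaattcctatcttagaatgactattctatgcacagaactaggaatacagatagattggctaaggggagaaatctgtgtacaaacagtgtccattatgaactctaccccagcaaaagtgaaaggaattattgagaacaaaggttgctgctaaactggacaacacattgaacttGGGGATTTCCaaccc
Psmb8: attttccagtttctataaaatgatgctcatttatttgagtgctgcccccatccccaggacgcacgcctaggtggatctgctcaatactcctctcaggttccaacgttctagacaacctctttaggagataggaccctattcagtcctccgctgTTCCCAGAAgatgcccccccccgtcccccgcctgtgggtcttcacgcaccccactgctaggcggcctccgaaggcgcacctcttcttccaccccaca
Psmb9 and Tap1: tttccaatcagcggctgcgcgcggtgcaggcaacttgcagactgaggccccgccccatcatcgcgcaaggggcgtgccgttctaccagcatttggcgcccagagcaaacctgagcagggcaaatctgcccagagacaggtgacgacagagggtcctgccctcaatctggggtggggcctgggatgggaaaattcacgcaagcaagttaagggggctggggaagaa
B2m: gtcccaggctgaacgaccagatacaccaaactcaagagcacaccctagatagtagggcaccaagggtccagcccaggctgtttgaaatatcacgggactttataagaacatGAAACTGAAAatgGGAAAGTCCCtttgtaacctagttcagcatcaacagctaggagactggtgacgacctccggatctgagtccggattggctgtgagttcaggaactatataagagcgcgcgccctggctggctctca

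In the 250 bases before its start, Ubd held 1 kappa-B match, GGGGATTTCC, at 6 to 15 bases before the start, and 0 matches to either interferon motif. Psmb8 held 1 interferon-gamma activated site, TTCCCAGAA, at 89 to 97 bases. B2m held 1 response element core, GAAACTGAAA, at 130 to 139 bases and 1 kappa-B match at 117 to 126 bases, with no overlap between them. The windows of Psmb9, Psmb10, Psme1, Psme2, Tap1 and Tapbp held 0 matches to the 3 motifs. Over 32851 promoter windows of the same length, 7.02% held the interferon-gamma activated site, 2.98% the response element core and 7.25% the kappa-B motif, and the matches describe letters only.

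Ubd was high in every db/db nerve and low in every db/+ nerve. On the db/+ arrays 101, 103, 104 and 106 its log2 level was 8.29, 7.45, 7.91 and 8.04, and on 105, 404 and 407 it was 7.55, 7.91 and 8.45. On the db/db arrays 110, 111 and 112 it reached 12.49, 12.50 and 12.41, and on 409, 410 and 411 it reached 12.12, 12.03 and 12.03. The 4 db/+ arrays with high neuron markers overlapped the other db/+ arrays, and every db/db array lay above every db/+ array. Group means came to 7.94 ± 0.36 (SD, n = 7) for db/+ against 12.26 ± 0.23 (SD, n = 6) for db/db, a difference of 4.32 with a standard error of 0.17, or 19.99-fold. This difference chose the gene, was the 9th highest of the 15437, and is given as a description with no test. Arrays 101 to 112 alone gave 4.62 and arrays 404 to 411 gave 3.88. Leaving out db/+ 101, 103, 104 and 106 gave 4.29.

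**Figure D1:**
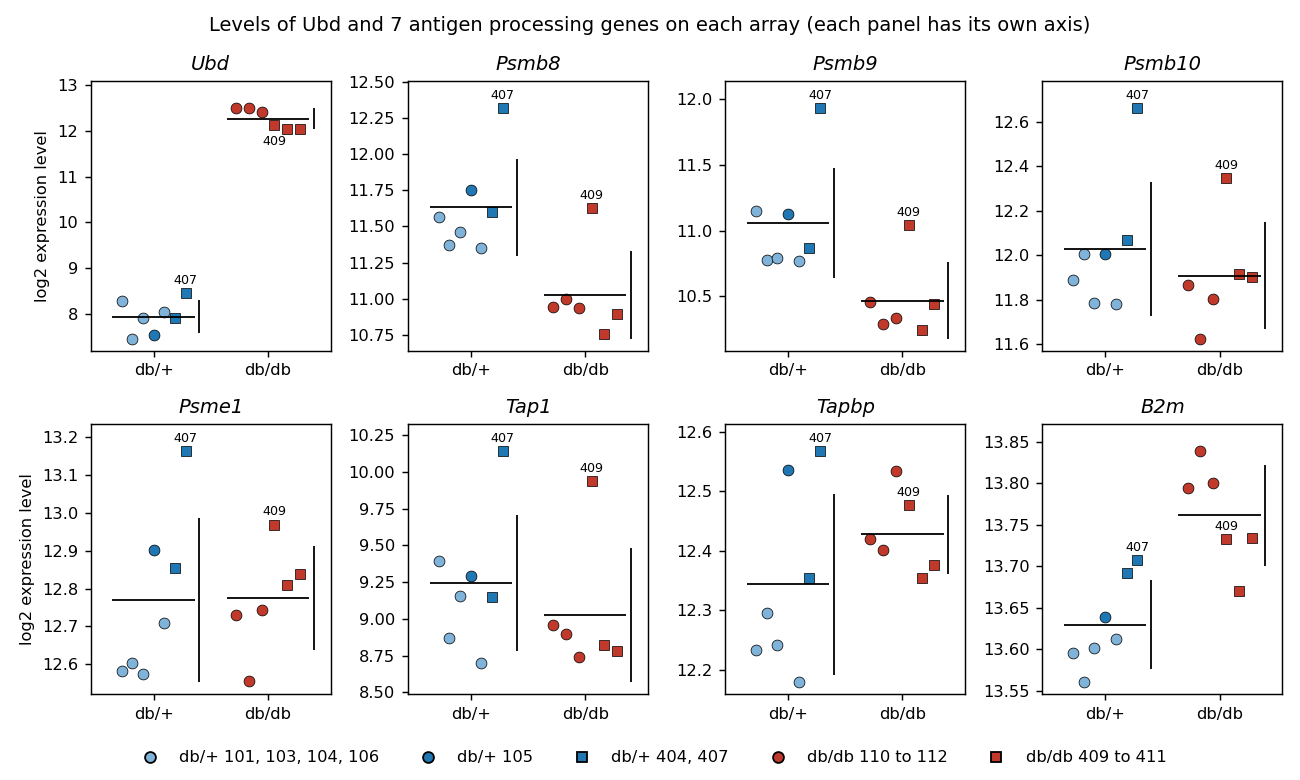
Log2 expression level (vertical axis, a different range in each panel) of the 8 measured genes on each of the 13 arrays, with db/+ in blue (101, 103, 104 and 106 pale) and db/db in red, circles for arrays 101 to 112 and squares for 404 to 411. Horizontal lines are group means and vertical lines 1 SD either side. Ubd lies 7.45 to 8.45 on db/+ arrays against 12.03 to 12.50 on db/db arrays, while the groups overlap for the other 7 genes, and arrays 407 and 409 stand high for Psmb8, Psmb9, Psmb10, Psme1 and Tap1.

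The catalytic subunits of the immunoproteasome did not share that height. Psmb8, which encodes the inducible subunit with chymotrypsin-like activity, measured 11.57, 11.37, 11.46 and 11.35 on db/+ arrays 101, 103, 104 and 106, then 11.75, 11.60 and 12.32 on 105, 404 and 407. Levels of 10.94, 11.001 and 10.94 were found on db/db arrays 110, 111 and 112, then 11.63, 10.76 and 10.90 on 409, 410 and 411. Of the db/db arrays 5 lay below the lowest db/+ array, and db/db 409 lay among the db/+ arrays. The means were 11.63 ± 0.33 (SD, n = 7) in db/+ and 11.03 ± 0.31 (SD, n = 6) in db/db, so that Psmb8 stood at −0.61 with a standard error of 0.17 in db/db against db/+.

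Psmb9, another inducible catalytic subunit, measured 11.15, 10.78, 10.79 and 10.77 on db/+ arrays 101, 103, 104 and 106, then 11.13, 10.87 and 11.94 on 105, 404 and 407. Its db/db levels were 10.45, 10.29 and 10.33 in 110, 111 and 112, and 11.04, 10.24 and 10.44 in 409, 410 and 411. Again db/db 409 alone overlapped the db/+ arrays, since the other 5 lay between 10.24 and 10.45. The difference was −0.59 with a standard error of 0.19. Psmb10, the remaining inducible subunit, ranged from 11.78 through a median of 12.01 to 12.66 in db/+ and from 11.62 through 11.88 to 12.35 in db/db, and the groups overlapped at a difference of −0.12 (standard error 0.15).

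The activator, transporter and loading genes differed little. Psme1 ranged from 12.57 through a median of 12.71 to 13.16 in db/+ and from 12.56 through 12.78 to 12.97 in db/db, with a difference under 0.01 and a 95% interval of −0.23 to 0.24. Tap1 ranged from 8.70 through 9.15 to 10.14 in db/+ and from 8.74 through 8.86 to 9.94 in db/db, at −0.22 with an interval of −0.74 to 0.30. Tapbp ranged 12.18 to 12.57 on db/+ arrays against 12.36 to 12.54 on db/db arrays, at 0.08 with an interval of −0.09 to 0.26. B2m had the least spread of the 8 within a genotype, from 13.56 through 13.61 to 13.71 in db/+ and from 13.67 through 13.76 to 13.84 in db/db. It stood 0.13 higher in db/db with a standard error of 0.06, and 2 db/+ arrays reached into the db/db range.

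In the limma fit over all genes, 25.1% of genes passed a Benjamini-Hochberg adjusted p of 0.05, 13.4% higher and 11.7% lower in db/db, and the groups did not overlap for 6.17% higher and 3.51% lower. Of the 8 measured genes 1 passed as higher (Ubd, also the only 1 without overlap), 2 as lower (Psmb8 and Psmb9) and 5 did not pass. Either way the groups did not overlap for 9.68% of all genes. The list was chosen with this comparison known, so nothing is read from that count. In smaller sets of arrays 1 higher and 2 lower passed in arrays 101 to 112 (18.5% of all genes called, 8.67% lower), and 1 higher and 0 lower in arrays 404 to 411 (9.1%, 4.17% lower). The count was 1 higher and 1 lower without db/+ 101, 103, 104 and 106 (12.9%, 6.78% lower). It was 1 higher and 2 lower with the number series as a block (27.4%, 12.9% lower) and without db/+ 407 and db/db 409 (23.6%, 11.1% lower). The Psmb8 difference was −0.87 in arrays 404 to 411 and −0.42 with array weights, and that of Psmb9 was −0.84 without db/+ 101, 103, 104 and 106.

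**Figure D2:**
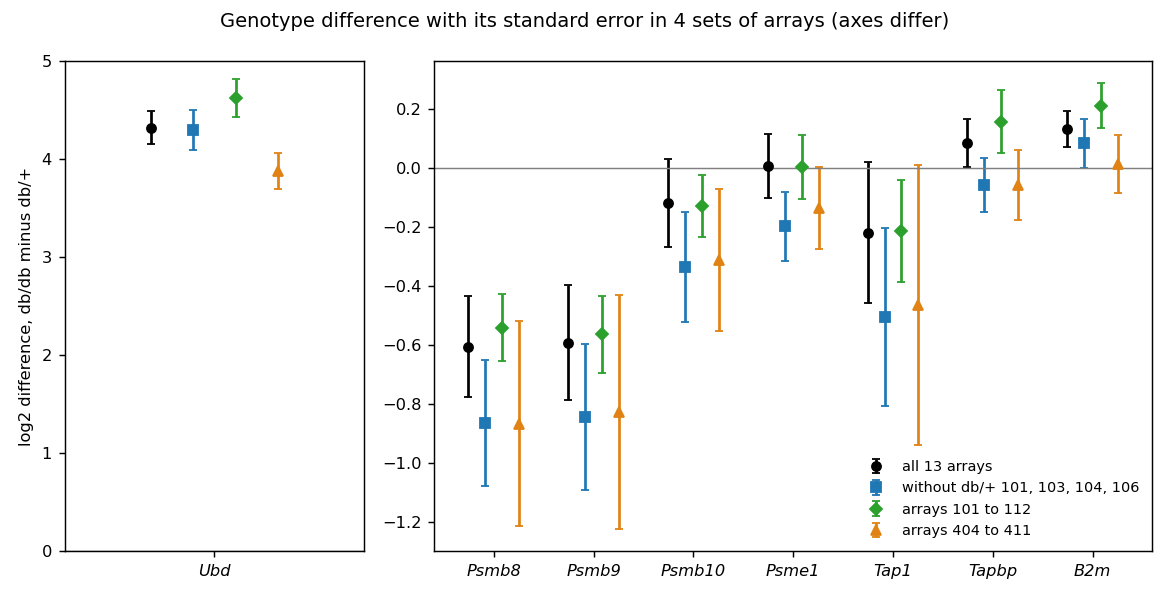
Log2 difference of db/db minus db/+ (vertical axes, with different ranges) for Ubd at left and the other 7 genes at right, as estimates with 1 standard error, in all 13 arrays and in 3 smaller sets of arrays. Ubd lies between 3.88 and 4.62 in the 4 sets, Psmb8 and Psmb9 lie below 0 in each, and Psme1 and Tapbp change sign between sets.

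Whether Ubd moved with the other genes was asked with the genotype difference taken out. Each gene was fitted on genotype and on the Ubd level less its genotype mean, with 1 slope for both genotypes, and the slope is the log2 change of that gene for a change of 1 in Ubd. By limma with Benjamini-Hochberg adjustment 0 of 15436 genes passed (0% called, 477 at an unadjusted p below 0.05), so 0 of the other 7 genes passed. The slope was 0.34 for Psmb8 (95% interval −0.31 to 0.99), 0.47 for Psmb9 (−0.25 to 1.18), 0.49 for Tap1 (−0.41 to 1.39) and 0.11 for Psmb10 (−0.48 to 0.71). It was 0.11 for B2m (−0.12 to 0.35), 0.04 for Psme1 (−0.39 to 0.47) and 0.04 for Tapbp (−0.29 to 0.36). In db/+ alone the slopes were 0.49 for Psmb8, 0.73 for Psmb9, 0.35 for Psmb10 and 0.80 for Tap1, and in db/db alone they turned negative, at −0.13, −0.35, −0.60 and −0.45. None of these 8 slopes passed, and their difference between genotypes was not tested. The intervals of the common slope include both 0 and, for Psmb9 and Tap1, a change as large as that of Ubd. Inside a genotype the SD of Ubd was 0.31, at the 56.6th percentile of all genes. In simulated data of this design, with noise independent between genes, 35% of slopes of 1 and 69% of slopes of 2 were recovered. Slopes as small as those found here were not simulated, and a shared movement could be missed.

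In db/db alone, Ubd was split by sample number, since 110, 111 and 112 lay between 12.41 and 12.50 and 409, 410 and 411 between 12.03 and 12.12. Over those 6 arrays 1103 genes passed for a slope on Ubd (7.15% called, limma with Benjamini-Hochberg adjustment), and 0 of the other 7 were among them. Within db/db the Ubd level and the sample number cannot be told apart. Between the number series, with genotype in the fit, 17% of genes differed, and Psmb10 was the only 1 of the 8 that passed (10.5% of all genes passed as higher), 0.38 higher in 404 to 411 (standard error 0.12, limma with Benjamini-Hochberg adjusted p = 0.0471). Psme1 was 0.26 higher and missed the threshold (adjusted p = 0.0534), and Ubd stood at −0.05 (adjusted p = 0.876). Psmb10 no longer passed without db/+ 407 and db/db 409, nor in 10 of the 13 fits that left out 1 array. The interaction of genotype with number series was −0.74 for Ubd (standard error 0.30, adjusted p = 0.291), and 0% of genes passed for it, with 2360 at an unadjusted p below 0.05.

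Psmb8, Psmb9, Psmb10, Psme1 and Tap1 were high on the same arrays as each other, which Ubd followed only in part. Psmb8, Psmb9, Psmb10, Psme1, Tap1, Tapbp and B2m were each highest in db/+ 407 among the db/+ arrays, and the first 5 were each highest in db/db 409 among the db/db arrays. Among all genes 23.2% were highest in db/+ 407 and 12.8% in db/db 409. Ubd was also highest in db/+ 407, at 8.45 against 8.29 in the next array, but in db/db 409, at 12.12, it was below 110, 111 and 112. B2m shared this order, at 13.795 to 13.84 on 110 to 112 against 13.67 to 13.73 on 409 to 411. Ubd and B2m were both lowest in db/+ 103 and both highest in db/db 111. The slope of B2m on Ubd was 0.095 to 0.15 leaving out 1 array, and none passed. Inside a genotype the SD of B2m was only 0.057. To set the other genes side by side with Ubd, the same slope was fitted on Psmb9 in its place, chosen with these levels in view. By limma with Benjamini-Hochberg adjustment 82 genes passed (0.531% called), 78 (0.505%) of them with a positive slope. Among the 78 were Tap1 with a slope of 1.18 ± 0.14 (SE), Psmb8 with 0.83 ± 0.11 and Psmb10 with 0.67 ± 0.12 (limma, adjusted p = 0.00387, 0.00577 and 0.042). Ubd had a slope of 0.33 (95% interval −0.18 to 0.84, adjusted p = 0.526). Without db/+ 407 the count was 0 (420 at an unadjusted p below 0.05), with slopes of 0.91 for Psmb8, 1.41 for Tap1 and −0.058 for Ubd. Without both 407 and 409 it was again 0 (746 unadjusted), with slopes of 0.62, 1.03 and 0.35. The count was also 0 without db/+ 101, 103, 104 and 106 (1027 unadjusted), with slopes of 0.81, 1.17 and 0.30, and with array weights 8 genes passed and 0 of them were members. The slopes of Psmb8 and Tap1 on Psmb9 were thus positive in each of these sets, while the calls were not kept.

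**Figure D3:**
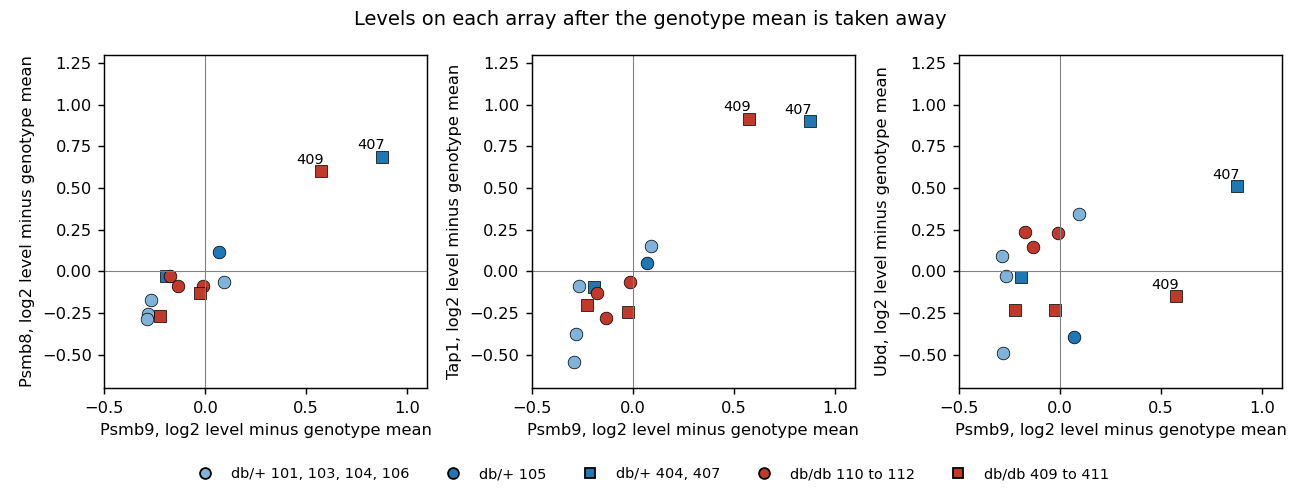
Log2 level less the genotype mean on each of the 13 arrays, for Psmb8 (left), Tap1 (middle) and Ubd (right) on the vertical axis against Psmb9 on the horizontal axis, with the colours and shapes of the plot of levels. Arrays 407 and 409 are high for Psmb9, Psmb8 and Tap1, whereas for Ubd 407 is above and 409 below the genotype mean.

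Genes that type I interferon is known to induce were high on the same arrays as the immunoproteasome genes, and macrophage markers mainly on db/+ 407. Of 16 measured genes induced by type I interferon, 16 were highest in db/+ 407 and 15 in db/db 409, and their mean was 10.69 and 10.56 there against 8.57 to 9.47 in the other db/+ arrays and 8.32 to 9.55 in the other db/db arrays. Irf7, the gene of a factor in this response, had a slope of 3.18 ± 0.37 (SE) on Psmb9, and Bst2, which tethers virus particles, 2.14 ± 0.21. Psmb9 was taken for that fit because it was high on 407 and 409, so these slopes describe the same arrays again, and 0 genes passed without 407. Of 9 macrophage markers 8 were highest in db/+ 407 and 4 in db/db 409, and the slopes of C1qa and Itgam on Psmb9 were 1.22 ± 0.19 and 1.39 ± 0.21 (SE). The mean of these markers was 12.01 on 407, the highest of the db/+ arrays. On 409 it was 11.91, the highest of the db/db arrays but close to 110 and 411, at 11.81 and 11.75. In db/+ 407, against 23.2% of all genes, the highest level was also found for 7 of 10 MHC class I genes and 4 of 6 endothelial markers. It was found for 9 of 15 tumour necrosis factor genes and 6 of 11 GTPases and chemokines. In db/db 409, against 12.8% of all genes, these counts were 4, 1, 8 and 10. Other lists were lower in 407, with 2 of 11 interferon-gamma signalling genes, 2 of 9 core subunits and 1 of 13 T and NK cell markers. The B cell, dendritic cell, neuron and Schwann cell lists had 0 in 407. The part of macrophages in the levels on these arrays was not tested. Between the genotypes 0 of the 16 type I interferon genes passed, where 25.1% of all genes passed. Their median difference was −0.04 against 0.02 over all genes. The lowest p among them belonged to Rsad2, an antiviral enzyme, which stood at 1.03 ± 0.43 (SE, limma with Benjamini-Hochberg adjusted p = 0.0969). The difference of the 3′ and 5′ actin probe sets, which follows RNA quality, was 0.40 in db/+ 407 and 0.48 in db/db 409, the lowest of each genotype. Array db/db 411 was close to 409, at 0.52. The db/+ arrays other than 407 lay at 0.96 to 1.40 and the db/db arrays at 0.48 to 0.92. Apart from 407, this measure thus separated the genotypes. Its part in the levels of these arrays and in the genotype differences was not tested.

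Genes that carry the interferon-gamma signal differed in both directions. Of 11 measured genes of the pathway 4 rose, 1 fell and 6 did not pass, with a median difference of 0.16, where 25.1% of all genes passed. The receptor genes Ifngr2 and Ifngr1 rose by 0.58 ± 0.13 and 0.45 ± 0.10 (SE), with groups that did not overlap (limma with Benjamini-Hochberg adjusted p = 0.00733 and 0.00815). Irf8, a factor of myeloid cells, rose by 0.92 ± 0.24 (adjusted p = 0.0154). Irf1, the factor that acts on the immunoproteasome genes, fell by 0.53 on the log2 scale with a standard error of 0.15 (adjusted p = 0.0218), from 11.13 ± 0.26 (SD, n = 7) to 10.60 ± 0.28 (SD, n = 6). Ifng itself was 4.58 ± 0.32 in db/+ and 4.77 ± 0.26 in db/db and did not pass (limma, adjusted p = 0.407). The values carry no detection calls, so such low levels were not separated from background. Without db/+ 101, 103, 104 and 106 Ifngr1 stood at 0.27 and Irf8 at 0.53, and both missed the threshold (limma, adjusted p = 0.0837 and 0.248).

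Of 11 measured GTPases, chemokines and other genes that interferon-gamma induces, 3 rose and 8 did not pass, near the 25.1% called among all genes, with a median of −0.08. The 3 were the chemokine genes Cxcl10 and Cxcl9 and the checkpoint ligand gene Cd274. Cd274 rose by 1.02 ± 0.15 (SE, limma with Benjamini-Hochberg adjusted p = 0.000552), from a range of 9.79 to 10.83 up to a range of 11.21 to 11.44. Cxcl10 ranged from 7.01 to 8.48 over the db/+ arrays and from 8.56 to 9.34 over 5 db/db arrays, and reached 12.67 on 409. It rose by 1.89 ± 0.57 and Cxcl9 by 0.84 ± 0.28 (adjusted p = 0.0293 and 0.0422). Without db/db 409 the Cxcl10 difference was 1.26 (limma with Benjamini-Hochberg adjusted p = 0.00358). Without db/+ 101, 103, 104 and 106 both missed the threshold, Cxcl10 at a larger difference of 2.11 (adjusted p = 0.128) and Cxcl9 at 0.64 (adjusted p = 0.224). The GTPase genes, which act against parasites and bacteria inside cells, had no call, with Igtp at −0.53, Gbp3 at −0.33, Iigp1 at −0.34 and Gbp2 at 0.05. The groups overlapped for all 4.

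Tumour necrosis factor is the other known inducer of FAT10. Of 15 measured genes of its pathway 3 rose and 12 did not pass, a share near the 25.1% called and 13.4% higher among all genes, and the median was 0.49 against 0.02 over all genes. The chemokine gene Ccl2 rose by 1.81 ± 0.34 (SE), the feedback inhibitor gene Tnfaip3 by 0.91 ± 0.20 and Tnf itself by 1.0005 ± 0.32 (limma with Benjamini-Hochberg adjusted p = 0.00247, 0.00684 and 0.036). Tnf was 5.94 to 7.36 on db/+ arrays against 6.71 to 8.46 on db/db arrays. The 3 calls were lost without db/+ 101, 103, 104 and 106, where Ccl2 stood at 1.47, Tnfaip3 at 0.48 and Tnf at 0.48 (adjusted p = 0.0547, 0.121 and 0.463). In arrays 404 to 411 alone they were 1.93, 0.49 and 0.41 and did not pass (adjusted p = 0.0818, 0.0888 and 0.448), so that Ccl2 differed there by as much as over all arrays.

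**Figure D4:**
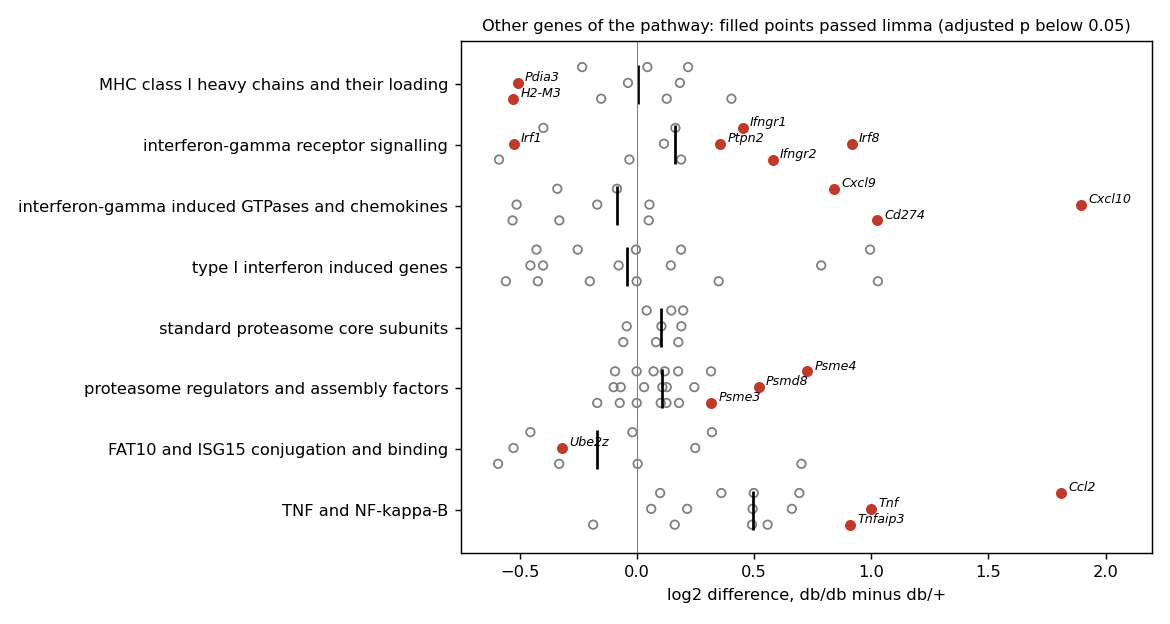
Log2 difference of db/db minus db/+ (horizontal axis) for each measured gene of 8 lists of the pathway, 1 row to a list, with filled and named points for genes that passed limma and a vertical bar at the list's median. The medians lie between −0.17 and 0.49, and the highest point is Cxcl10 at 1.89, against 4.32 for Ubd, which is not drawn.

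Of 10 measured MHC class I genes and loading partners 0 rose, 2 fell and 8 did not pass, where 25.1% of all genes passed. Their differences ran from −0.53 to 0.40, with a median under 0.01. The heavy chain genes H2-K1 and H2-D1 stood at 0.18 ± 0.08 and 0.13 ± 0.07 (SE) and did not pass (limma with Benjamini-Hochberg adjusted p = 0.113 and 0.201), and closely related heavy chains can share probe signal. The class I-like gene H2-M3 fell by 0.53 and the chaperone gene Pdia3 fell by 0.51 (adjusted p = 0.0146 and 0.0179), with groups that did not overlap. Tap2, which pairs with Tap1, stood at −0.23 ± 0.15. In arrays 101 to 112 and in arrays 404 to 411 taken alone 0 of the 10 passed.

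Genes of the standard proteasome, which the inducible subunits replace, did not pass between the genotypes. Of 9 measured core subunits 0 passed, where 25.1% of all genes passed. Their differences ran from −0.06 to 0.20 with a median of 0.11. Psmb6 and Psmb7, whose places Psmb9 and Psmb10 take, stood at 0.19 ± 0.11 and 0.11 ± 0.06 (SE). Psma1, Psma2 and Psma6 stood at 0.18, 0.20 and 0.15 and passed with an intensity trend, median centring and array weights, and not in the fit given here. Of 21 regulators and assembly factors 3 rose and 18 did not pass, near the 13.4% that rose among all genes. Psme4, which encodes another proteasome activator, rose by 0.73 ± 0.08 (SE) from a range of 9.70 to 9.99 up to a range of 10.43 to 10.66 (limma with Benjamini-Hochberg adjusted p = 4.38e-05). The lid subunit gene Psmd8 rose by 0.52 ± 0.10 and Psme3, which encodes the nuclear relative of PA28, by 0.32 ± 0.09 (adjusted p = 0.00245 and 0.0242). Pomp, the factor that assembles new proteasomes, was 13.43 in both genotypes.

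The enzymes Uba6 and Ube2z join FAT10 to its targets, and other listed genes serve the related modifier ISG15 or bind FAT10. Of the 10 measured 0 rose, 1 fell and 9 did not pass, where 25.1% of all genes passed, with a median of −0.17. Ube2z, the conjugating enzyme that takes FAT10 from Uba6, fell by 0.32 on the log2 scale (standard error 0.08, limma with Benjamini-Hochberg adjusted p = 0.0157), and stood at −0.20 without db/+ 101, 103, 104 and 106 (adjusted p = 0.208). Uba6, the activating enzyme, stood at −0.33 ± 0.30 (SE). Uba7 and Ube2l6, the corresponding enzymes for ISG15, stood at −0.59 ± 0.22 and −0.53 ± 0.20 and missed the threshold (adjusted p = 0.0676 and 0.0706). Mad2l1, a spindle checkpoint protein that FAT10 binds, stood at 0.70 ± 0.28 (adjusted p = 0.0816).

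Markers of other cells that nerve can hold are set against 25.1% of all genes called, 13.4% higher and 11.7% lower. Of 9 macrophage markers 3 rose, with Cd68 at 1.38 ± 0.33 (SE) and Adgre1 at 0.86 ± 0.23 (limma with Benjamini-Hochberg adjusted p = 0.0101 and 0.0179), and the list mean was 10.83 to 12.01 on db/+ arrays against 11.39 to 11.91 on db/db arrays. Of 7 dendritic cell markers 2 rose and 1 fell. The integrin gene Itgax rose by 3.21 ± 0.36, Ccr7 by 0.97 ± 0.31, and Flt3 fell by 0.92 (adjusted p = 7.67e-05, 0.0379 and 0.0197), and the list mean was 6.60 to 7.77 on db/+ arrays against 6.93 to 7.52 on db/db arrays. Of 13 T and NK cell markers 0 passed, with a list mean 5.78 to 7.11 on db/+ arrays against 5.90 to 6.47 on db/db arrays. Of 5 B and plasma cell markers 1 rose (Sdc1), with a list mean 7.73 to 9.27 on db/+ arrays against 8.03 to 9.45 on db/db arrays. Of 7 adipocyte markers 4 rose, and their mean was 11.47 to 12.45 on db/+ arrays against 12.63 to 12.82 on db/db arrays. These ranges did not overlap, and neither did those of the neuron list mean given below, in the other direction. Both gaps were narrow beside that of Ubd. Of 6 endothelial markers 1 rose (Cdh5), of 8 neuron markers 7 fell, of 5 Schwann cell markers 3 fell and of 5 muscle markers 0 passed. The neuron list mean was 11.88 to 12.60 on db/+ 101, 103, 104 and 106. It was 7.86 to 9.48 on the other db/+ arrays and 7.04 to 7.83 on db/db arrays. The part of these cells in the Ubd level was not tested, and in whole nerve fewer cells of a type and less RNA per cell cannot be told apart.

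The genes whose level inside a genotype went most like that of Ubd were not members of the antigen processing list. By Pearson's r of genotype-centred levels over the 13 arrays, the measure of likeness, the first 10 were Mon1b (0.90), Lhx6 (0.82), Psme3ip1 (0.81), Oas1b (0.79), Plk1 (0.78), Fbxl18 (0.77), Mgarp (0.76), Cdk3 (0.75), Mad2l1bp (0.75) and Slc9a5 (0.75). They are a description of these arrays, since 0 genes passed for a slope on Ubd. Between the genotypes, Plk1 rose by 1.36 ± 0.34 (SE), Mgarp fell by 0.97 (limma with Benjamini-Hochberg adjusted p = 0.0126 and 0.0089), and the other 8 did not pass.

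The measured genes nearest to Ubd in order on chromosome 17 differed in both directions. Genes not measured were passed over, with no limit on distance, and the distances from Ubd were not worked out. Of the measured genes on the side before it in RefSeq's order, Zfp57, Mog and Gabbr1 stood at −0.80, −2.80 and −1.04 in db/db against db/+ (limma with Benjamini-Hochberg adjusted p = 0.00524, 0.055 and 0.0137). On the other side H2-M3 is given above, Pgk2 stood at −0.18 (adjusted p = 0.679), and Crisp2, a sperm protein gene, rose by 3.34 ± 0.26 (SE), from 4.85 to 8.19 on average with groups that did not overlap (adjusted p = 4.27e-06). These 6 genes were looked up after the values of Ubd were seen.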

How the data were processed

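RNA of whole sciatic nerve was amplified with a biotin label and read on 1-colour arrays. The authors deposited log2 values, for which the submitters' processing notes name RMA, and those values were used unchanged except in the normalization alternatives. RMA scales the arrays to each other and compresses folds of dim genes. Its version, the array platform and the build are each not given in the sources used here.

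Of 15479 probe sets, 42 controls stayed out, and 14801 of the other 15437 had 1 symbol, 636 none and 0 several. Genotype, number series (samples 101 to 112 or 404 to 411, whose meaning is not stated), their interaction and within-genotype slopes were fitted over all genes by limma 3.58.1 (R 4.3.3; lmFit, then eBayes). Tests were two-sided, and p-values were adjusted after Benjamini and Hochberg with a threshold of 0.05. Python 3.11.15, pandas 2.3.3, numpy 2.4.6 and matplotlib 3.10.9 did the rest.

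The members and lists were chosen with earlier results of these data known. Named were the members, the 3 genes of each pathway list with the smallest p and the 10 most like Ubd; other names were chosen after their values were seen. Tested on simulated data for 15437 genes, with noise independent between genes, the genotype fit recovered 68% of 100 changes of 1 and 97% of 100 changes of 2. In the arrays 25.1% of genes passed, a far larger share than was changed there, so these percentages need not hold for the data. Alternatives covered moderation, normalization, a dim filter, array weights, the number series and arrays left out; leaving out 407 with 409 and the slope on Psmb9 were added after the data were seen.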

Additional observations from a re-analysis of the deposited data

Results flagged for a closer look

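In 84 groups of 6 or 7 arrays, 9 had 1 array whose distance to its nearest neighbour, as a share of the group's range, was above Dixon's 95% critical value, which chance alone passes in about 1 of 20 groups. Array db/+ 407 stood high for Psmb8 (share 0.587), Psmb9 (0.674), Psmb10 (0.672) and the chaperone gene Pdia3 (0.667). Array db/db 409 stood high for Psmb8 (0.722), Psmb9 (0.732), Tap1 (0.819) and the chemokine gene Cxcl10 (0.809), the last at a log2 level of 12.67 against 9.34 on the next array. Psma1, a standard core subunit, was low on db/db 112 (0.81), at 12.24 against 12.31. Ubd had no such array in either genotype.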

How the results depend on the processing

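Of the 8 genes, the count higher in db/db was 2 with an intensity trend, with a robust trend and with median centring, and 1 in every fit that left out 1 array. The count lower was 1 with median centring and without db/+ 101, 103, 104 and 106, 0 with array weights (whose estimation did not fully converge) and in arrays 404 to 411, and 0 to 2 leaving out 1 array. Over all genes the genotype count was 6525 with array weights, 1404 in arrays 404 to 411, 1992 without those 4 arrays and 2893 to 4529 leaving out 1 array.

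Of all 15437 genes 3867 passed in the main fit, 3996 with a trend and 3989 with a robust trend. The count was 3890 with quantile normalization, 4069 with median centring and 3572 of 11578 without dim genes. With a trend 3 core subunits passed (also 3 robust) and 5 tumour necrosis factor genes, which were 5 with quantile normalization. With median centring the core, regulator and tumour necrosis factor counts were 3, 5 and 6, and without dim genes the core count was 2. With array weights, where 6525 of all genes passed, the counts were 6 for MHC class I, 1 for type I interferon and 3 for the core. They were 7 for regulators, 3 for FAT10 and ISG15 and 9 for tumour necrosis factor. With the number series as a block (27.4% of all genes called) they were 1 for the core and 3 for FAT10 and ISG15. The latter was also 3 without 407 and 409 (23.6%). In arrays 101 to 112 (18.5%) they were 0 for MHC class I and 2 for FAT10 and ISG15. In arrays 404 to 411 (9.1%) they were 0 for MHC class I, for FAT10 and ISG15 and for tumour necrosis factor. There they were 1 each for interferon-gamma signalling, GTPases and chemokines, and regulators. Without the 4 db/+ arrays (12.9%) they were 1, 2, 1 and 0 for MHC class I, signalling, GTPases and chemokines, and tumour necrosis factor. Leaving out 1 array gave 1 to 2 for FAT10 and ISG15, 2 to 3 for MHC class I, 2 to 7 for tumour necrosis factor, 1 to 3 for GTPases and chemokines, 4 to 6 for signalling, 2 to 5 for regulators, 0 to 1 for the core and 0 to 2 for type I interferon.

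Genotype differences that changed sign were those of Psme1 (−0.019 with quantile normalization, −0.052 with the block, −0.14 in arrays 404 to 411, −0.20 without the 4 arrays, −0.034 to 0.071 leaving out 1), Psmb10 and Tap1 (0.047 and 0.052 with array weights), Tapbp (−0.059 in arrays 404 to 411 and −0.059 without the 4) and Oasl1 (−0.055 in arrays 404 to 411).

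For the slope on Ubd the count of genes was 1103 in db/db alone and 0 to 0 leaving out 1 array. Slopes turned negative with array weights (Psmb10 −0.31, Psme1 −0.20, Tap1 −0.020), in db/db alone (Psmb8 −0.13, Psmb9 −0.35, Psmb10 −0.60, Psme1 −0.45, Tap1 −0.45), without the 2 arrays farthest in Ubd, 407 and 103 (Psmb8 −0.23, Psmb9 −0.19, Psmb10 −0.40, Psme1 −0.44, Tap1 −0.24, Tapbp −0.18), and without 407 and 409 (Psmb10 −0.25, Psme1 −0.22, Tapbp −0.12). Leaving out 1 array gave −0.075 to 0.47 for Psmb8, −0.046 to 0.60 for Psmb9, −0.35 to 0.21 for Psmb10, −0.26 to 0.13 for Psme1, −0.031 to 0.66 for Tap1 and −0.13 to 0.15 for Tapbp.

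Between number series 2 of the 8 genes passed with either trend, median centring or no dim genes, 0 with quantile normalization, array weights, without the 4 arrays or without 407 and 409, and 0 to 2 leaving out 1. Over all genes 1584 passed without the 4 arrays, 1212 without 407 and 409, and 1406 to 3177 leaving out 1. Signs turned for B2m (0.0012 with median centring, −0.031 to 0.018 leaving out 1), Tapbp (−0.057 without the 4, −0.027 without 407 and 409, −0.011 to 0.086 leaving out 1), Ubd (−0.24 to 0.0016 leaving out 1), and Psmb8, Psmb9 and Tap1 (−0.036, −0.034 and −0.0093 without 407 and 409).

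For the slope on Psmb9, 8 genes passed with array weights, 13 in db/+ alone, 0 without the 4 arrays, in db/db alone or without 407 and 409, with 0 of the members in each of these, and 0 to 203 genes and 0 to 3 members leaving out 1. In db/db alone the slopes of Ubd and B2m were −0.21 and −0.033, and leaving out 1 array −0.058 to 0.54 and −0.013 to 0.084.

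The cause of these changes was not tested. No paired analysis was possible because the genotypes share no sample numbers. The number of arrays limits the precision, and the values hold no signal over background.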
